A study of Homo sapiens with 16 samples.

Results

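PMA-treated JSL1 cells of a line edited to include exon 9 of HDAC7 were compared with PMA-treated wild-type JSL1 cells. JSL1 cells are a subclone of Jurkat, a human T cell leukemia line in wide use. PMA (phorbol 12-myristate 13-acetate) is a phorbol ester that switches on protein kinase C and mimics part of T cell activation. The comparison took every library with these labels, which were 5 of the 16 in the series. They comprised 3 PMA libraries labelled iE9, with the genotype HDAC7 E9 knock-in, and 2 PMA libraries of wild type (WT). Both groups received 20 ng/mL PMA for 48 h. The same lines without PMA (3 and 2 libraries) and the PMA libraries of a line made to lack the exon, labelled dE9 (3 libraries), served for reference. The edited lines were made with CRISPR-Cas9, and whether a line is 1 clone or a pool is not given in the sources used here. Nothing in the labels says that replicates were separate cultures, so p-values measure only the spread between these libraries, which may be technical.

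HDAC7 is a class IIa histone deacetylase, a co-repressor that MEF2 transcription factors bring to their target genes. When kinases phosphorylate it, 14-3-3 proteins bind it and carry it out of the nucleus, and its targets are released. In developing T cells it is known for holding down NR4A1 until the antigen receptor signals. Protein kinase D, which acts downstream of diacylglycerol and protein kinase C, is one of the kinases that phosphorylate class IIa deacetylases.

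Exon 9 lies in the coding region of HDAC7 (ENSG00000061273, hg38, chr12:47782722-47833132, minus strand), at chr12:47795906-47796016. It is the element that the edited lines were designed to differ in, and it is shown here in capitals with 9 bases of the neighbouring exons on each side, as read from transcript HDAC7-201 of GENCODE release 29.

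HDAC7 exon 9: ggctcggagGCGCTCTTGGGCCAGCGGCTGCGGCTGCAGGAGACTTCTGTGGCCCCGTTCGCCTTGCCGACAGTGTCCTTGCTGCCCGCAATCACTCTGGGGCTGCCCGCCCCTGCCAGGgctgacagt

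The exon has 111 nt, which are 37 codons, so that including or skipping it keeps the reading frame. Its GC content is 70.3%. Of the 30 annotated HDAC7 transcripts, 5 hold the exon, 5 span its position without it, and the other 20 do not reach it. The exon 9 share was taken as the TPM (transcript abundance, scaled so that all libraries have equal totals) of the first 5 over that of these 10.

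The share checks the labels, and with PMA it did not set the line apart from WT. It was 42.31%, 63.0% and 44.27% in the libraries labelled iE9, against 43.08% and 53.76% in WT. The groups overlapped. Their means of 49.86% ± 11.42 (SD, n = 3) and 48.42% ± 7.55 (SD, n = 2) differed by 1.44 percentage points (two-sided exact permutation test, p = 1.0; the smallest p this design can give is 0.2). Leaving out 1 library at a time moved this difference between -5.13 and 6.78 points. Without PMA the difference was 14.59 points (exact permutation p = 0.2, the smallest possible). In the PMA libraries labelled dE9 the share was 0.0%, 0.68% and 0.0%. The exon 9 content of the PMA libraries therefore does not distinguish iE9 from WT by this measure, and every direction below concerns the label iE9.

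Transcripts that hold the exon summed to 32.32, 47.33 and 32.85 TPM in the libraries labelled iE9 and to 25.63 and 33.73 TPM in WT. Those that skip it summed to 44.06, 27.79 and 41.36 TPM, against 33.86 and 29 TPM. Both classes overlapped between the groups. The transcripts that do not reach the exon did not overlap, with 134.09, 117.59 and 90.64 TPM in the libraries labelled iE9 and 56.4 and 44.47 TPM in WT. Among them, HDAC7-215 stood at 18.48, 17.21 and 5.05 TPM and HDAC7-212 at 4.06, 4.41 and 3.94 TPM in these libraries, and both were listed at 0 in WT. HDAC7-225, which retains an intron, had 26.03, 25.09 and 8.26 TPM, against 1.77 and 2.94 TPM. Salmon can assign reads only to the annotated transcripts in its index, and how reads of the edited allele were assigned was not tested.

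**Figure D1:**
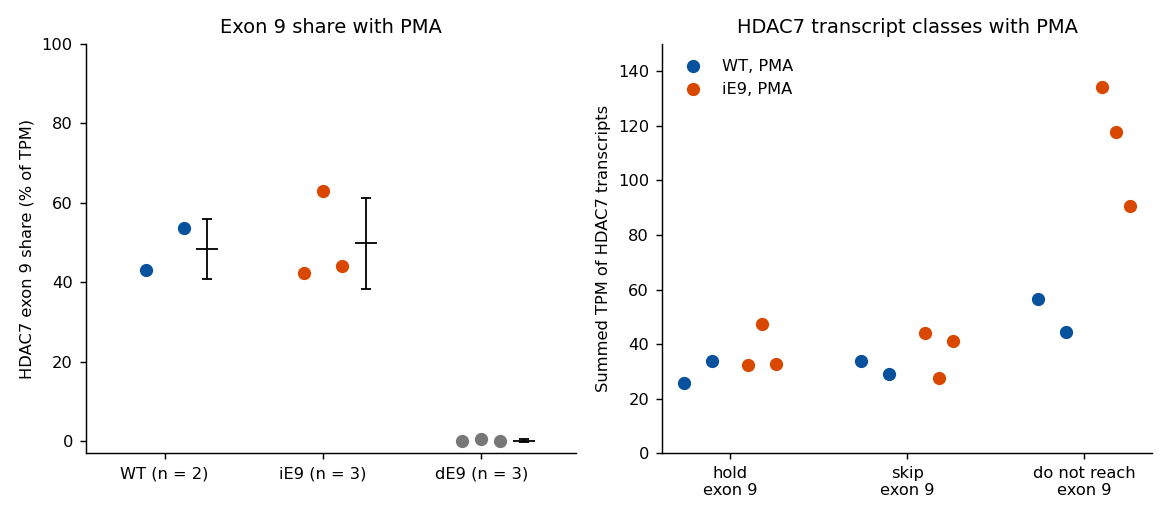
Left, HDAC7 exon 9 share (percent of TPM) in each PMA library of WT, iE9 and dE9, with mean and SD beside the points. Right, summed TPM of HDAC7 transcripts that hold, skip or do not reach exon 9, 1 point per PMA library. The exon 9 shares of iE9 (42.31% to 63.0%) and WT (43.08% to 53.76%) overlap, whereas transcripts that do not reach the exon lie at 90.64 TPM or more in iE9 and at 56.4 TPM or less in WT.

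With PMA the level of the whole gene did not separate from WT by the test either. HDAC7 stood at 405, 325 and 322 counts per 1e6 (CPM, TMM-scaled) in the libraries labelled iE9 and at 244 and 238 CPM in WT, without overlap. The difference was 0.54 ± 0.24 on the log2 scale (SE; edgeR quasi-likelihood test, adjusted p = 0.328). Without PMA, HDAC7 passed the same test as higher in iE9, at 168 ± 37.4 CPM (SD, n = 3) against 51.9 ± 8.76 CPM in WT (n = 2). That difference was 1.70 ± 0.25 on the log2 scale (adjusted p = 0.00698). With PMA, HDAC7 was also higher in iE9 than in dE9 (log2 0.90 ± 0.21, adjusted p = 0.0393). Around the locus, 25 other genes within 1 Mb of HDAC7 were tested by edgeR and 0 passed, with 1 at an unadjusted p under 0.05, 0 by DESeq2 and 1 by limma voom. The 11 of them with a mean of at least 5 CPM differed by -0.17 to 0.70 on the log2 scale.

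Library depth was 17.12 and 17.62 in WT, in units of 1e6 estimated counts, and 15.41, 15.82 and 17.64 in the libraries labelled iE9. Library 1 of the latter stood apart, with 12.81% of its counts from mitochondrially encoded genes, against 5.67% to 6.04% in the other 4. On the second principal component (13.4% of variance over all 16 libraries) it lay at -67.8, its 2 companions at -36.8 and -31, and WT at 45.6 and 41.9. The median SD of a gene between libraries was 0.352 log2 units in iE9 and 0.15 in WT.

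Of 18073 tested genes, 203 (1.12%) passed an adjusted p of 0.05. In the libraries labelled iE9, 60 (0.332%) were higher and 143 (0.791%) lower, and 188 of the 203 code for protein. The lower group reached further from WT, with a median log2 fold change of -2.27 against 1.92 in the higher group. A 2-fold difference was reached by 185 of them (52 higher, 133 lower) and a 4-fold difference by 112 (29 higher, 83 lower). In all 203 the 3 libraries labelled iE9 lay wholly on 1 side of the 2 WT libraries. Over all tested genes this was so for 19.9% on the higher and 21.3% on the lower side. The 203 genes were called on these same libraries, so their separation is no added evidence. The count rested on few libraries. It was 60 without library 1 of iE9, 65 without library 2, 73 without library 3, 24 without library 1 of WT and 38 without library 2. In every one of these 5 fits 22 genes passed, 3 higher and 19 lower. Of the 68 called genes named, 54 were lost without library 1 of WT, 50 without library 2 of WT, and 38, 40 and 32 without libraries 1, 2 and 3 of iE9. APP, PPM1H, SLIT2, PTPRD, ATP9A, TRPC6, BBOX1, CPA3, GABRA3, ADGRL2, ZNF618, GAS6-AS1, KIR3DL2 and SP140 passed in all 5 of these fits. DESeq2 called 732 genes (315 higher), among them all 203.

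**Figure D2:**
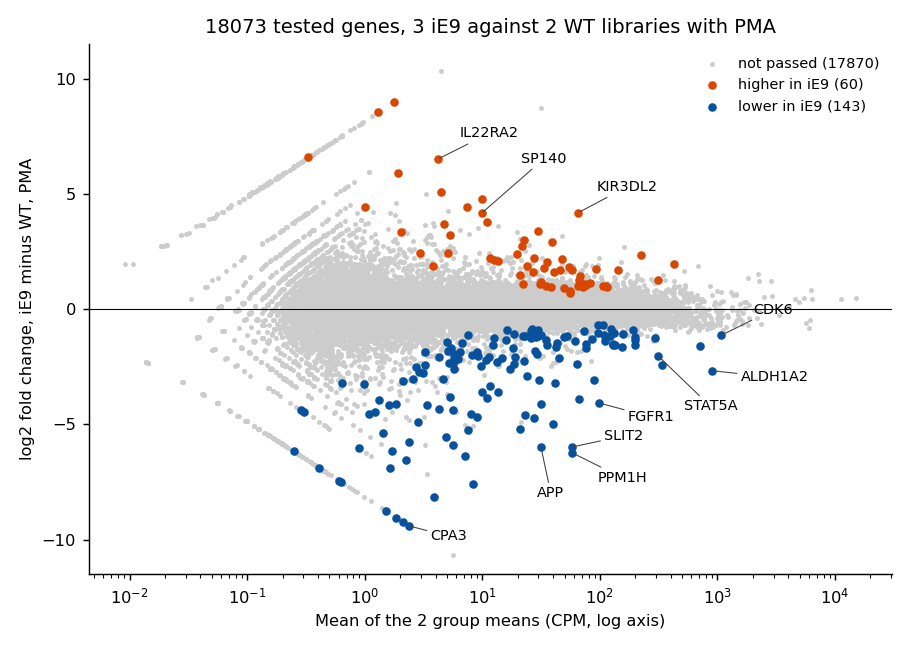
Log2 fold change of 18073 genes between PMA libraries labelled iE9 (n = 3) and WT (n = 2) against mean level in CPM on a log axis, 1 point per gene. Of the coloured genes, which passed an adjusted p of 0.05, 143 lie below and 60 above 0.

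APP was lower in all 3 libraries labelled iE9. It encodes the amyloid precursor protein, a membrane protein of neurons and many other cells (ENSG00000142192, chr21:25880550-26171128, minus strand). It stood at 1.22, 0.862 and 0.883 CPM in the libraries labelled iE9 and at 48.1 and 75.7 CPM in WT. Every iE9 value was thus far below both WT values, with a log2 fold change of -5.97 ± 0.40, or 62.5-fold lower (adjusted p = 4.26e-06). The PMA libraries labelled dE9 held 18.7, 9.95 and 20.8 CPM, between the groups.

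PPM1H, a serine/threonine phosphatase (chr12:62643982-62935037), had 0.576, 1.36 and 2.54 CPM in the libraries labelled iE9, against 122 and 108 CPM in WT. It was 75.5-fold lower (log2 -6.24 ± 0.70, adjusted p = 0.000701). SLIT2, a secreted guidance cue for axons and migrating cells (chr4:20253260-20620561), had 1.22, 2.03 and 2.04 CPM against 84.2 and 142 CPM. That is 63.6-fold lower (log2 -5.99 ± 0.76, 0.00155). In both genes every library labelled iE9 lay far below the lower of the WT libraries.

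PTPRD, CDH4, CTNNA2 and CLDN1 were lower too. PTPRD, a receptor tyrosine phosphatase of synapses, had 0.576, 0.37 and 0.221 CPM in iE9-labelled libraries and 11.6 and 17.7 CPM in WT (37.5-fold lower, adjusted p = 0.000273). CDH4, or R-cadherin, an adhesion molecule, had 0.768, 1.29 and 1.27 CPM against 39.1 and 42.4 CPM (36.3-fold, 0.011). CTNNA2, the neuronal alpha-catenin that ties cadherins to actin, had 0.128, 0.37 and 0.11 CPM against 8.91 and 10.4 CPM (46.5-fold, 0.0378). CLDN1, a tight junction protein of epithelia, had 4.99, 1.72 and 3.53 CPM against 45.3 and 74.3 CPM (17.5-fold, 0.0112). No iE9-labelled library reached the lower WT value in any of them. ATP9A, a lipid flippase of endosomes, was lower as well (32.0-fold, 0.00288), as was the voltage-gated sodium channel SCN9A (29.7-fold, 0.00619).

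STAT5A and FGFR1 were lower as well. STAT5A, a transcription factor downstream of interleukin 2 family cytokines (chr17:42287547-42311943), had 87.2, 124 and 157 CPM in the libraries labelled iE9, against 554 and 458 CPM in WT. It was 4.13-fold lower (log2 -2.05 ± 0.31, adjusted p = 0.00458). FGFR1, a fibroblast growth factor receptor, had 12.2, 10.6 and 10.1 CPM against 193 and 176 CPM (16.8-fold, 0.00619). The PMA libraries labelled dE9 were at 190, 269 and 269 CPM for STAT5A and at 221, 29.9 and 80 CPM for FGFR1.

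CD34, CPA3 and MS4A2 were among the lower genes. CD34, a surface marker of blood progenitors, had 0.832, 0.185 and 0.938 CPM in iE9-labelled libraries and 16.2 and 14.5 CPM in WT (23.2-fold lower, adjusted p = 0.0406). CPA3, the carboxypeptidase of mast cell granules, had 0 counts in all 3, against 5.31 and 4.17 CPM in WT. Against a floor of 3 counts per library it was at least 26.2-fold lower (0.00177). MS4A2, the beta chain of the high-affinity IgE receptor, had 1 count in all 3 libraries, against 115 in WT, a ratio of 161 with a counting interval of 28.3 to 6410 (0.0303). The interval and the floor cover counting error only. BBOX1, the last enzyme of carnitine synthesis, had 1 count against 275 (ratio 385, interval 68.5 to 15200; 0.00135). Besides CPA3, the gamma-aminobutyric acid receptor subunit GABRA3 (at least 20.5-fold lower, 0.00302), the adhesion receptor ADGRL2 (at least 16.7-fold, 0.0019) and LRRC18 (at least 23.2-fold, 0.0284) had 0 counts in the libraries labelled iE9. LRRC18 lies within WDFY4 on the other strand. WDFY4, which takes part in cross-presentation, was itself 26.9-fold lower (0.00619), and without strand information the reads of both cannot be told apart.

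ALDH1A2, KRT1 and PRDX1 were lower as well, at higher levels. ALDH1A2, which makes retinoic acid, had 121, 333 and 272 CPM in libraries labelled iE9 and 1570 and 1520 CPM in WT (6.38-fold lower, adjusted p = 0.0199). KRT1, a keratin of differentiated epidermis, had 40.8, 79.7 and 198 CPM against 574 and 554 CPM (5.31-fold, 0.0287). Reads of KRT1 may be shared with other keratins. PRDX1, a peroxiredoxin that removes peroxides, had 201, 432 and 440 CPM against 1180 and 962 CPM (2.99-fold, 0.0238). In these 3 genes library 1 was the lowest of those labelled iE9. CHST11, a chondroitin sulfotransferase, was 2.38-fold lower (0.0112) and PRDM8, a PR domain factor, 2.35-fold lower (0.0173).

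On the higher side were KIR3DL2, SIRPG and IL22RA2. KIR3DL2, an inhibitory receptor of natural killer and some T cells that binds MHC class I (ENSG00000240403, chr19:54850443-54867207), had 171, 110 and 92.6 CPM in the libraries labelled iE9 and 8.45 and 5.21 CPM in WT. It was 18.2-fold higher (log2 4.19 ± 0.49, adjusted p = 0.000869). The PMA libraries labelled dE9 had 1.24, 1.84 and 0.678 CPM, below WT. KIR genes are near-identical copies, so the split of reads among them is uncertain. SIRPG, a receptor of T cells for CD47, had 111, 56.1 and 39.5 CPM against 9.02 and 9.5 CPM (7.43-fold, 0.00648). IL22RA2, the soluble decoy receptor for interleukin 22, had 400 counts in the 3 libraries labelled iE9 and 3 in WT, a ratio of 95.3 (interval 32.4 to 464; 0.011).

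SP140 and PLXNC1 were higher too. SP140, a nuclear body protein of leukocytes that reads chromatin, had 21.8, 14.9 and 19.5 CPM in iE9-labelled libraries against 1.26 and 0.823 CPM in WT (17.9-fold, adjusted p = 0.00109). SP140L is a close paralog with which it may share reads. PLXNC1, a semaphorin receptor, had 94.2, 32.9 and 34.8 CPM against 4.11 and 6.04 CPM (10.6-fold, 0.00363). ABI3, an adaptor of actin regulation, was 13.5-fold higher (0.00312), but GNGT2 (33.6-fold, 0.044) overlaps it on the other strand. CGREF1, a secreted calcium-binding protein, was 27.5-fold higher (0.00965). The matrix protease MMP9 had 29.3, 8.13 and 4.69 CPM against 0.742 and 0.549 CPM (21.5-fold, 0.0441), a value in which library 1 stood well above the others. SCN2A, a sodium channel of neurons, was 13.0-fold higher (0.0261), so that of the 2 sodium channel genes named here 1 was higher and 1 lower.

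An inhibitor of the cell cycle was higher too. CDKN1A, which encodes the cell cycle inhibitor p21 (chr6:36676460-36687339), had 55.4, 28.7 and 36.5 CPM in the libraries labelled iE9, against 4.68 and 5.32 CPM in WT. It was 8.02-fold higher (log2 3.00 ± 0.51, adjusted p = 0.011). The PMA libraries labelled dE9 had 14.5, 20.5 and 13.9 CPM, between the groups (log2 1.70 from WT, not passed). The nucleotide sugar transporter SLC35D1 (5.01-fold, 0.0314), the organic anion transporter SLCO3A1 (4.44-fold, 0.0464), the DNA exonuclease TREX1 (4.67-fold, 0.0313), the atypical small GTPase RHOU (4.62-fold, 0.0284), the membrane protein SIDT1 (4.37-fold, 0.0381) and the palmitoyltransferase ZDHHC14 (4.24-fold, 0.0032) were higher as well. TREX1 overlaps ATRIP on the same strand, so the split of reads between them is uncertain. AKR1B15, an aldo-keto reductase, and CMKLR1, the chemerin receptor, had 0 counts in WT and were at least 21.3-fold (0.00798) and 15.4-fold (0.0478) higher.

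**Figure D3:**
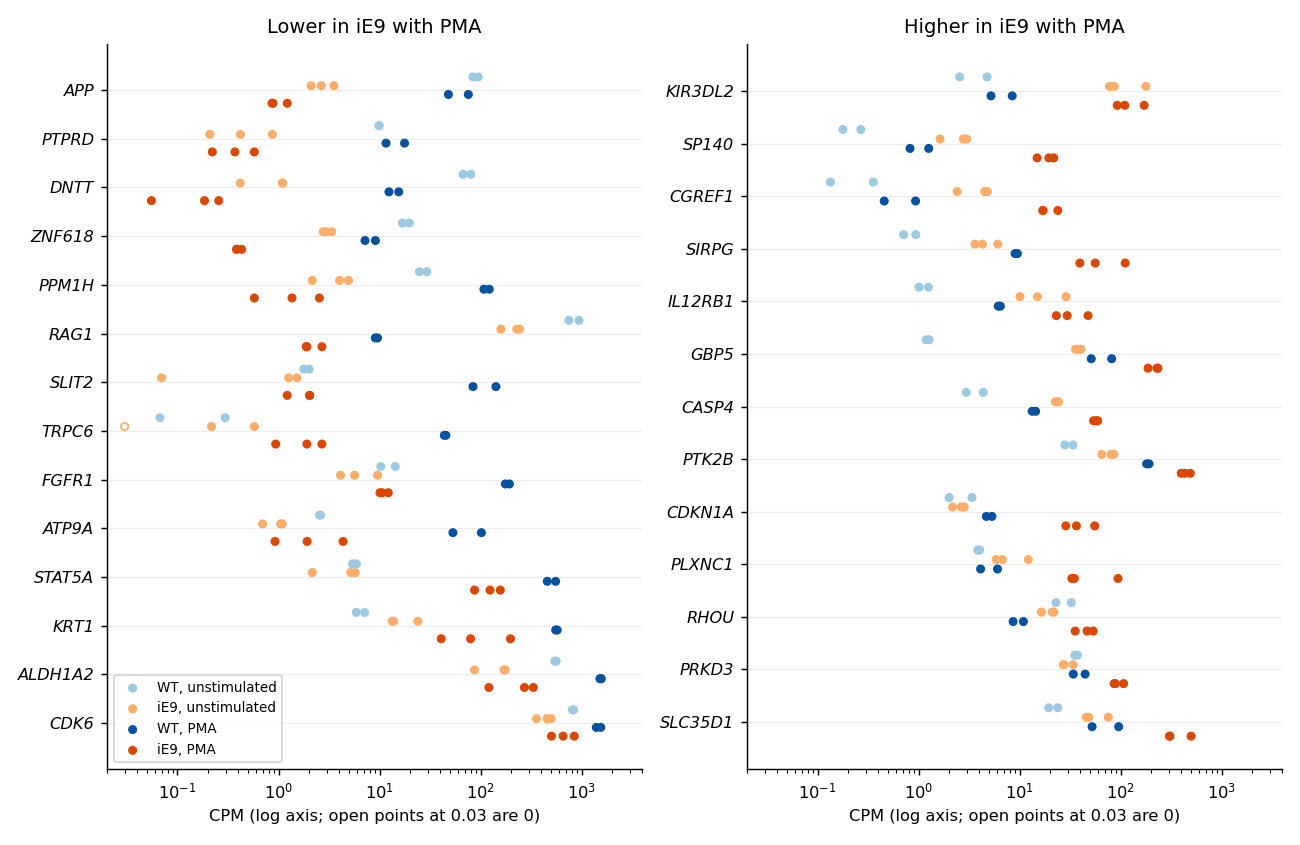
CPM of 27 named genes that passed the test, on a log axis, with 1 point per library of WT and iE9, unstimulated and with PMA. Left, genes lower with PMA in the 3 libraries labelled iE9 than in the 2 WT libraries. Right, genes higher. APP, PTPRD and DNTT are low in iE9 under both treatments, whereas TRPC6 and STAT5A overlap WT without PMA and lie below it with PMA.

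The libraries without PMA form a second comparison of the same lines, which shares no library with the PMA comparison. Library 1 of iE9 stood apart there too. It had 9.17% of its counts from mitochondrially encoded genes, against 4.14% and 3.85% in its companions. On the second principal component it lay at -74, against -34.7 and -42.6. The comparisons are thus not known to vary separately, and a link between the iE9 libraries numbered 1 was not tested. Without PMA 249 genes (1.38%) passed, 122 higher and 127 lower in iE9. Both comparisons called 57 genes, 15 higher and 42 lower, all with the same sign. These are 28.1% of the genes called with PMA and 22.9% of those called without. Of the 203 genes, 177 (87.2%) had the same sign without PMA, against 67.2% of all tested genes. Across genes, which are not independent replicates, Pearson's r between the log2 fold changes was 0.75 over the 203 genes and 0.37 over all.

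Genes lower under both treatments included APP, at 3.53, 2.1 and 2.65 CPM without PMA in iE9-labelled libraries, against 84 and 94.9 CPM in WT (log2 -5.02, adjusted p = 1.58e-05). DNTT, the terminal transferase that adds bases at rearranging antigen receptor genes, was 83.0-fold lower with PMA (0.256, 0.185 and 0.0552 CPM against 15.5 and 12.4 CPM; adjusted p = 0.0224). Its log2 fold change was -6.38 with PMA and -6.36 without. RAG1, the recombinase of the same process, was below WT by a like amount under both treatments, with log2 -2.11 (adjusted p = 0.0176) and -2.01 (0.00979). Its levels differed widely between the treatments, with 2.16 ± 0.46 (SD, n = 3) and 9.32 ± 0.33 CPM (n = 2) with PMA, against 210 ± 45.5 and 846 ± 137 CPM without. PTPRD, ZNF618, GAS6-AS1, SCN9A, FXYD2, PTPN3 and GPR162 were also lower in both comparisons. The antisense gene GAS6-AS1 overlaps GAS6, and FXYD2 overlaps a readthrough gene, so these 2 are uncertain.

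Genes higher under both treatments included KIR3DL2, with 178, 86.5 and 77.7 CPM without PMA in iE9-labelled libraries, against 4.76 and 2.55 CPM in WT (log2 4.97, adjusted p = 0.000407). SP140 (log2 3.43, 0.00822), SIRPG (2.50, 0.0298), CGREF1 (3.93, 0.033), IL22RA2 (7.77, 0.00822) and DHRS2, a short-chain dehydrogenase (3.54, 0.0262; 3.22 with PMA), also passed without PMA. The inflammatory caspase gene CASP4 had 54.0, 59.3 and 58.0 CPM with PMA, against 14.4 and 13.3 CPM (4.12-fold, adjusted p = 0.0464), and was higher without PMA too (log2 2.69, 0.0158). PTK2B, a calcium-responsive relative of focal adhesion kinase, had 490, 398 and 433 CPM with PMA, against 181 and 191 CPM. Its log2 fold change was 1.24 with PMA and 1.32 without (adjusted p = 0.0112 and 0.00872).

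Other genes differed with PMA and did not pass without it. SLIT2 stood at 1.52, 1.26 and 0.0696 CPM in unstimulated libraries labelled iE9 and at 2.01 and 1.78 CPM in unstimulated WT, without overlap (log2 -0.93 ± 0.83, adjusted p = 0.639). With PMA, WT stood at 113 ± 40.6 CPM (SD, n = 2) and iE9 at 1.76 ± 0.47 CPM (n = 3). TRPC6, a calcium-permeable channel opened by diacylglycerol, was at or below 0.577 CPM in all 5 unstimulated libraries. With PMA it was at 45.4 and 43.8 CPM in WT and at 2.69, 1.91 and 0.938 CPM in iE9 (24.2-fold lower, adjusted p = 0.00283). STAT5A stood at 4.37 ± 1.94 CPM in unstimulated iE9 and at 5.65 ± 0.36 CPM in unstimulated WT. FAM30A, a long noncoding RNA that overlaps an immunoglobulin segment, was 15-fold lower with PMA (0.0179). CDKN1A stood at 2.55 ± 0.34 CPM (n = 3) and 2.69 ± 0.97 CPM (n = 2) without PMA.

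Whether the line difference itself differed between treatments was tested as an interaction. By edgeR 0 of 18073 genes (0.0%) passed, the smallest adjusted p was 0.131, and 1022 genes (5.65%) had an unadjusted p under 0.05. DESeq2 called 62 and limma voom 16. The 203 genes were chosen by the PMA difference, which is a term of the interaction. A share above that of all tested genes is therefore expected from the choice alone. Of these 203 genes, 81 had an unadjusted interaction p under 0.05. Among them were CPA3 (unadjusted p = 1.63e-05), GBP5 (3.61e-05), WDFY4 (0.000117), KRT1 (0.000132), CDKN1A (0.000394), SLIT2 (0.000465) and TRPC6 (0.00085). GBP5, an interferon-induced guanylate-binding protein, differed more without PMA. It had 38.4, 35.8 and 40.6 CPM there, against 1.27 and 1.19 CPM (log2 4.95, adjusted p = 0.000293). With PMA it had 229, 187 and 234 CPM, against 81.5 and 51.2 CPM (log2 1.71, 0.0386).

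**Figure D4:**
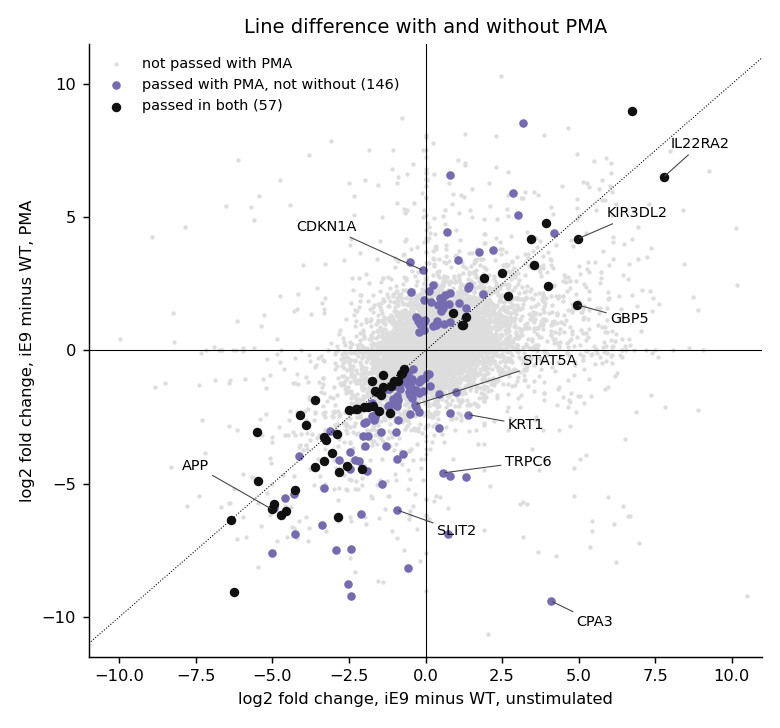
Log2 fold change of iE9 over WT with PMA (vertical) against the same without PMA (horizontal), 1 point per gene, with the line of equality dotted. The 57 genes that passed in both comparisons all have the same sign in each, and CDKN1A lies at -0.08 and STAT5A at -0.35 without PMA.

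The line labelled dE9 gave a further reference with the same WT libraries, so only its values are set beside those of iE9. With PMA, dE9 against WT had 0 called genes (0.0%), with 459 (2.54%) at an unadjusted p under 0.05. The median SD of a gene between the dE9 PMA libraries was 0.389 log2 units, the largest of the 6 groups. The count of 0 therefore does not show that dE9 equals WT. Its mean was 85.3 CPM for PPM1H, 28.3 CPM for TRPC6, 13.6 CPM for PTPRD and 473 CPM for KRT1, with log2 fold changes from WT of -0.43, -0.66, -0.11 and -0.25. APP (log2 -1.91), ATP9A (-2.0) and CLDN1 (-2.02) lay further from WT in dE9 without passing. Tested directly against dE9, 151 of the 203 genes also passed. Of all tested genes 471 did (2.61%), with 199 (1.1%) higher and 272 (1.51%) lower. That test uses the same 3 iE9 libraries by which the 203 were chosen. The overlap is thus partly built in and is no independent evidence. APP was lower than in dE9 (log2 -4.06, adjusted p = 9.08e-05) and KIR3DL2 higher (6.61, 1.12e-05). CDKN1A (1.30, 0.0992), STAT5A (-0.98, 0.0731) and DNTT (-3.69, 0.13) did not pass that test.

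Beyond single genes, 47 lists of pathways, complexes and cell type markers were followed. They held 625 tested genes, of which 16 passed (2.56%, against 1.12% of all tested genes), and 12 lists had at least 1 such member. Without library 1 of iE9, calls were left in 4 lists, through CDKN1A, TRPC6 and CPA3. The lists were chosen with results of these data known and are no independent evidence of a direction. Of the HDAC family and its co-repressors, 0 of 14 passed by edgeR (4 at an unadjusted p under 0.05, 2 by DESeq2, 1 by voom), with a median log2 fold change of -0.08, against 0.0031 over all tested genes. Of the 14-3-3 proteins, the carriers of phosphorylated HDAC7, 0 of 7 passed (1 unadjusted, 0 by DESeq2, 1 by voom). All 7 had fitted values below WT (median -0.34), but only 3 lay wholly below it. Their summed level overlapped, at 1211.6 to 2238.83 CPM in libraries labelled iE9 and 2230.79 to 2235.06 CPM in WT. YWHAZ had 430, 809 and 742 CPM against 750 and 751 CPM, with library 1 of iE9 the lowest. The MEF2 and NR4A list, the axis that HDAC7 represses, had 0 of 9 passed (3 unadjusted, all lower; 2 by DESeq2, 3 by voom; median 0.21). In it NR4A1 stood at 1.92, 1.85 and 4.08 CPM in libraries labelled iE9 and at 11 and 14.7 CPM in WT, without overlap and without passing (log2 -2.28 ± 0.56, adjusted p = 0.0649). A match to the MEF2 consensus, sought on both strands of RefSeq promoters (GRCh38.p14, 250 bases before to 50 after the start), occurred in 151 of 11375 tested genes (1.33%). It occurred in 0 of 40 genes that were higher and in 1 of 101 that were lower, PTPN3. A match is a description of letters in this window and not a binding site.

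Antigen receptor and costimulation genes gave no call by edgeR. Of the T cell receptor and CD3 complex 0 of 9 passed (0 unadjusted, by DESeq2 or by voom; median -0.05), and CD3E, the epsilon chain, stood at 909, 602 and 554 CPM, against 557 and 534 CPM in WT (log2 0.34, adjusted p = 0.621). Of the costimulatory and inhibitory receptors 0 of 15 passed (3 unadjusted, 1 by DESeq2, 2 by voom), although 12 had fitted values above WT (median 1.10). In that list CD28, the main costimulatory receptor, had 771, 414 and 465 CPM against 310 and 285 CPM (log2 0.89, 0.594), and CD5, a brake on receptor signalling, had 410, 192 and 154 CPM against 100 and 74.6 CPM (1.53, 0.561). Library 1 was the highest in each of these 3 genes. Of the activation markers 1 of 11 passed, lower. CD69, an early activation antigen, had 764, 458 and 599 CPM against 403 and 400 CPM (0.60, 0.414).

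Lists of signalling genes gave 0 to 2 calls each. Among protein kinase C and diacylglycerol genes 1 of 18 passed, PRKD3, a protein kinase D, with 107, 86.2 and 88.9 CPM in libraries labelled iE9 and 34 and 44.5 CPM in WT (2.40-fold higher, adjusted p = 0.0407). Among MAPK feedback genes 1 of 15 passed, the ERK pathway inhibitor SPRY1, with 13.0, 21.8 and 18.5 CPM against 54.9 and 51.1 CPM (2.98-fold lower, 0.0459). The calcium and ion channel list had 2 of 18 lower, TRPC6 and ORAI2, a subunit of store-operated calcium channels (23.2, 36.2 and 30.1 CPM against 68.7 and 68.4 CPM; 2.30-fold lower, 0.0468). NFATC1, the calcium-driven transcription factor and the activation marker that passed, had 11.7, 15.4 and 19.5 CPM against 35.7 and 37.7 CPM (2.36-fold lower, 0.03). Of NF-kB members and targets 0 of 18 passed (4 unadjusted, 1 by DESeq2, 2 by voom), and of AP-1 and EGR factors 0 of 18 (4 unadjusted, 0 by DESeq2 and 0 by voom).

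Thymocyte factors and rearrangement genes had 2 of 25 lower, DNTT and RAG1, and 23 not passed (median -0.45). DESeq2 called 9 of the 25 and voom 8. At an unadjusted p under 0.05, 9 were lower and 5 higher. The TAL1 complex, the leukemic transcription factor complex of this cell type, had 0 of 8 passed (5 unadjusted, 2 by DESeq2, 1 by voom) and a median of -1.05. TAL1 itself had 307, 396 and 417 CPM in libraries labelled iE9, against 763 and 723 CPM in WT (log2 -0.99 ± 0.25, adjusted p = 0.0765). Among homing receptors 1 of 18 passed, CCR8, a chemokine receptor of skin-homing and regulatory T cells, with 0.064, 0.185 and 0.276 CPM against 14.4 and 7.85 CPM (60.1-fold lower, 0.0425). Among imprinted genes 1 of 10 passed, MAGEL2 (20.6-fold lower, 0.0145).

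Cell cycle genes gave 2 calls in opposite directions. In the list of CDK inhibitors and G1 cyclins 1 of 12 was higher, CDKN1A, and 1 lower, CDK6, the G1 kinase, with 504, 657 and 846 CPM against 1400 and 1550 CPM (2.20-fold lower, adjusted p = 0.0407). All 16 DNA replication genes and all 16 mitosis and spindle genes had fitted values above WT, with medians of 0.66 and 0.70, yet 0 in either list passed by edgeR, DESeq2 or voom and 0 had an unadjusted p under 0.05. Of the p53 targets 1 of 15 passed, CDKN1A again.

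Interferon and antigen presentation genes had fitted values mostly above WT, in 16 of 24 and 14 of 15. Of 24 interferon response genes 2 were higher, among them GBP5, and 22 did not pass (median 0.38). Of 15 MHC class I and peptide loading genes 0 passed by edgeR, 4 by DESeq2 and 3 by voom, while 13 lay wholly above WT, as 19.9% of all tested genes did. An unadjusted p under 0.05 was found in 10 of them, all higher, against 14.2% of all tested genes in either direction (median 1.0). B2M, the light chain of MHC class I, had 4610, 2100 and 2720 CPM in the libraries labelled iE9, against 1520 and 1200 CPM in WT (log2 1.21 ± 0.39, adjusted p = 0.164). Library 1 was again the highest. Among cytokine receptor chains 1 of 20 passed, IL12RB1, which binds interleukins 12 and 23, with 47.6, 23.1 and 29.6 CPM against 6.45 and 6.15 CPM (5.30-fold higher, 0.049). Of integrins and their ICAM ligands 0 of 16 passed (7 unadjusted, 0 by DESeq2, 1 by voom), and ITGB2, the beta chain of LFA-1, had 1850, 722 and 637 CPM against 325 and 265 CPM (1.86 ± 0.70, 0.242).

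**Figure D5:**
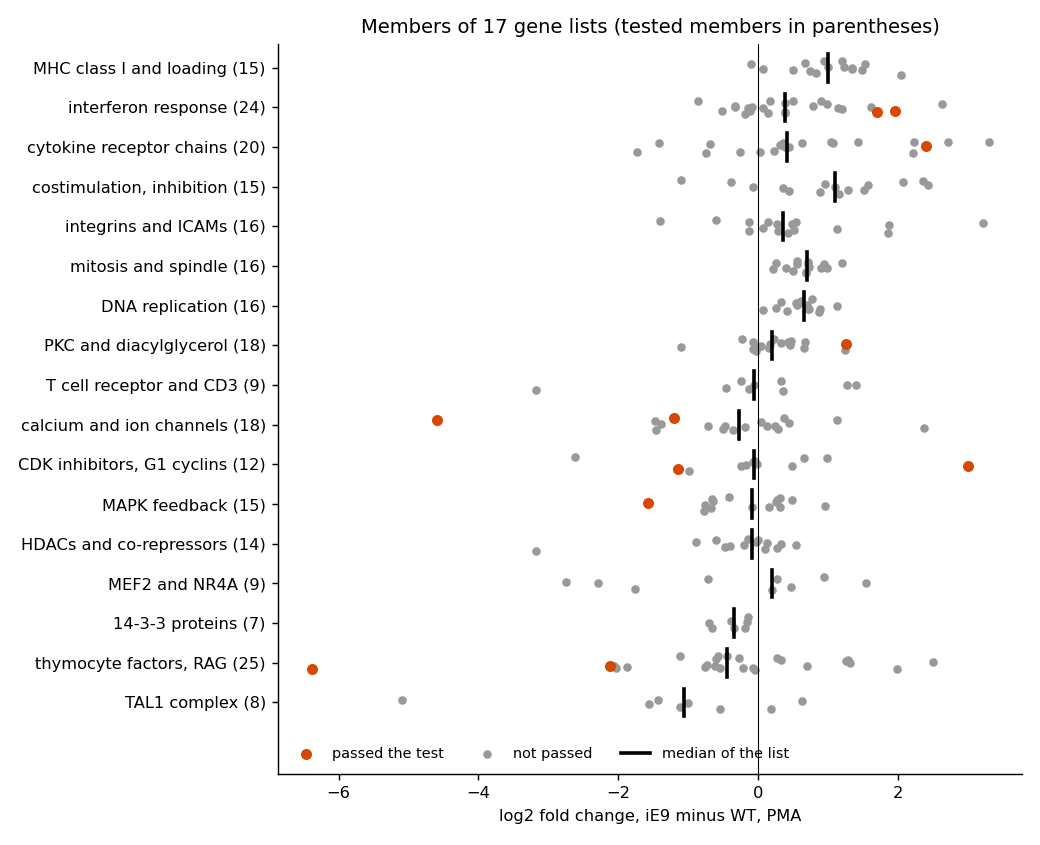
Log2 fold change (iE9 over WT, PMA) of the tested members of 17 lists, 1 point per gene, with the median of each list as a bar and genes that passed in orange. MHC class I genes centre on 1.0 and the TAL1 complex on -1.05, and neither list has a gene that passed.

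Markers of other cell types were summed per library. Mast and myeloid markers summed to 10.53 to 39.95 CPM in the libraries labelled iE9 and to 94.58 to 105.98 CPM in WT, with 2 of 4 tested members lower and ELANE and TPSAB1 at 0 in all 5. B cell markers summed to 209.69 to 408.45 CPM against 40.29 to 70.4 CPM. Nearly all of that was CD79A, the signalling chain of the B cell receptor, at 402, 206 and 226 CPM against 57.8 and 29.3 CPM (log2 2.68, adjusted p = 0.219). Of the 4 tested B cell markers 0 passed by edgeR, and the list had a median of -1.55. Only 1 was fitted above WT, while 3 were fitted below it, with all 3 iE9-labelled libraries under both WT libraries. The B cell genes CD22, FCER2, MS4A1 and VPREB1 were at 0 in all 5. Erythroid and megakaryocyte markers summed to 6.28 to 33.61 CPM against 2.51 to 2.63 CPM, with HBB, HBG1, HBG2 and PF4 among those at 0. Fibroblast and endothelial markers summed to 69.24 to 101.15 CPM against 48.31 to 48.86 CPM, with VWF at 0 in all 5. Most of that was PECAM1, at 89.9, 58.1 and 61.9 CPM against 35.3 and 32.6 CPM (log2 1.04, adjusted p = 0.37). Of the 4 tested fibroblast and endothelial markers 0 passed by edgeR (1 unadjusted, lower; 0 by DESeq2, 1 by voom). Epithelial markers (1.34 to 1.79 CPM against 1.14 to 1.7 CPM, with CDH1, EPCAM and KRT18 at 0 in all 5), natural killer and cytotoxic markers (157.7 to 402.37 CPM against 221.22 to 289.96 CPM) and T cell markers of Jurkat (3810.94 to 5620.93 CPM against 4307.62 to 4345.33 CPM) overlapped between the groups. In bulk RNA a change in the share of cells of a type and a change of RNA per cell cannot be told apart, and the part of these markers in the results above was not tested.

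The called genes lay on most chromosomes. The share called was highest on chromosome 18, with 7 of 265 tested genes, all lower (2.64%), followed by 21 (1.97%, 4 lower) and 20 (1.95%). It was lowest among the nuclear chromosomes on 16, with 1 of 923 (0.108%). Median log2 fold changes per nuclear chromosome ran from -0.10 to 0.14, the highest on chromosome 15.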

How the data were processed

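Polyadenylated RNA of 16 libraries was sequenced. Salmon and DESeq2 were used by the authors with the hg38 build, per the submitters' processing notes. Versions and strandedness were not given in the sources used here. The authors deposited estimated counts and TPM per transcript for each library, and effective lengths as other values, per the file headers. A gene TPM table deposited by the authors matched gene sums in 16 of 16 columns within 0.01 TPM, with 0 columns unused. All 205870 transcripts matched GENCODE release 29. Gene sums of estimated counts were rounded.

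Depth ran from 14536537 to 21888896 estimated counts per library. Replicates differed by more than sampling noise (lowest chi-square per degree of freedom 7.14), so each library was 1 sample. The main test was the two-sided quasi-likelihood F test of edgeR 4.0.16 (R 4.3.3), fitted on all 16 libraries with 1 coefficient for each of 6 groups. TMM factors and the filterByExpr rule, which kept 18073 of 33304 genes with a count, were used, with robust estimation off. Passing, being called, higher and lower mean a Benjamini-Hochberg adjusted p under 0.05 in this test, over all tested genes. The common biological coefficient of variation was 31.8%. Folds against 0 counts use a floor of 3 counts per library, and counting intervals are at 95%. Errors of log2 fold changes are SE.

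The comparison, lists and named genes were chosen with earlier results of these data known, so no list is independent evidence. Named genes were 7 fixed ones (HDAC7, CD28, CD69, CD3E, CD5, NR4A1 and IL2RA, which had log2 -0.42, adjusted p = 0.845), the 20 per direction with the largest called fold and at least 5 CPM in the higher group, up to 4 called or 2 of the highest level per list, 10 per direction called with and without PMA, and the 10 called genes with the highest level. LRRC18, GABRA3, ADGRL2, AKR1B15 and CMKLR1 were added after their values were seen, and some genes that the rule names are not reported here. Alternatives were RLE factors, DESeq2 1.42.0, limma 3.58.1 voom, other filters, a length offset, a replicate block and leaving out libraries. Simulated data were used to test the fit. Pairing of library numbers was checked only between WT and iE9 with PMA (r = 0.042 and 0.038 between libraries of the same number). With 2 WT libraries the deviations from their mean mirror each other, so this check cannot decide whether numbers pair the libraries. Pairing between the treatments of 1 line was not checked, and the main fit used no pairing.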

Additional observations from a re-analysis of the deposited data

Results flagged for a closer look

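In 9 called genes the 3 libraries labelled iE9 lay wholly on 1 side of the 2 WT libraries with PMA and wholly on the other side without PMA. Without PMA the log2 fold changes were 1.38 for KRT1, -0.30 for PRKD3, -0.48 for RHOU, -0.26 for the Rac and Cdc42 exchange factor gene SPATA13, -0.24 for the oxidoreductase OXNAD1, -0.22 for the ubiquitin ligase SMURF1, -0.05 for the chromatin protein MLLT10, -0.52 for the phosphatase inhibitor PPP1R14C and 1.0 for the sense-overlapping noncoding gene AC004847.1. The difference between treatments was tested as an interaction and passed for 0 of these genes.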

How the results depend on the processing

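For the main comparison, where 203 genes passed, RLE factors, a minimum of 1 CPM in 2 libraries, robust spread and leaving out mitochondrially encoded genes gave 197 to 205 calls. DESeq2 gave 732 (315 higher), limma voom 1021 (544 higher), no low-count filter 1162 (575 higher), only the 5 libraries 665 (328 higher) and a transcript length offset 119 (31 higher). The cause of these shifts was not tested. Leaving out 1 library gave 24 to 73 calls (a lone WT library was assumed to vary like the other groups), and leaving out both iE9 libraries numbered 1, chosen after seeing the data, gave 84 (24 higher). With a replicate block 229 genes passed (69 higher), of which 167 were among the 203, and 7 of the 68 called genes named were lost. For the interaction, where 0 passed, DESeq2 gave 62, voom 16, no low-count filter 292, the replicate block 2, leaving out both iE9 libraries numbered 1 gave 2, and leaving out 1 library 0 to 1. The exon 9 difference of 1.44 points was -3.11 over protein-coding transcripts and 2.06 in estimated counts, and ran from -5.13 to 6.78 without 1 library. No called gene that is named changed sign, whereas IL2RA, which was not called, stood at 0.25 with the replicate block. Of the 68 called genes, 14 passed under every alternative run. Of the 203 calls, 185 were at least 2-fold, and smaller differences are limited by the 2 WT libraries.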
